A study of Mus musculus with 8 samples.

Results

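Knock-in (KI) ventricle was followed over the first postnatal week by setting the 2 arrays labelled KI at 1 week in the deposited value table against the 2 arrays labelled KI at birth. These are 4 of the 8 arrays of the series. The KI mice are homozygous for a knock-in allele, TNNT2ΔK210, that removes 1 lysine codon from the gene of cardiac troponin T, and they serve as a neonatal model of dilated cardiomyopathy. The allele lies in the endogenous gene and is therefore present in every cell and at every age. The other 4 arrays hold wild-type (WT) ventricle of the same ages, and they are used here only to show where KI differed. Mouse strain and sex are not given in the sources used here. Per the labels, 3 ventricles were combined in each group, and it is not stated whether both arrays of a group were made from 1 pool. The p-values and errors therefore cover only array-to-array spread, possibly technical.

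The 2 deposited records do not name the 1-week arrays alike. The value table's KI 1-week replicate 1 is, value for value, the scanner file of a WT 1-week sample, and its KI 1-week replicate 2 is the scanner file labelled KI 1-week replicate 1. The value table's WT 1-week replicate 2 is in turn the scanner file labelled KI 1-week replicate 2. The birth arrays have the same label in both records. Values below follow the value table. Results with the scanner-file labels are set beside some of them, and where none is given the 2 records may still differ in a call. KI 1-week replicate 2 is KI in both records. The slide held the birth arrays in row 1 and the 1-week arrays in row 2, and so age and slide row cannot be told apart.

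In the first week after birth the mouse ventricle leaves its fetal programme. Cardiomyocytes replace the slow ventricular myosin heavy chain and slow skeletal troponin I by their adult forms, slow their division, and move from glucose towards fatty acids as fuel when oxygen and milk lipids arrive. Imprinted growth genes that are active in the fetus are shut down across many organs, and fibroblasts, vessels and nerves grow between the muscle cells while matrix is laid down.

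Levels are given as log2 signal minus the array's 75th percentile over probes, so that a level of 0 is the brightness of the probe at that percentile, and a difference of 1 is a 2-fold change. Genes are called at a limma adjusted p (Benjamini-Hochberg) under 0.05, and values after ± are limma standard errors with n = 2 arrays per group. Of 15746 genes tested, 1670 were called between birth and 1 week in KI (10.6%). The called genes were 923 higher at 1 week (5.86%) and 747 lower (4.74%). At least 2-fold changes were seen for 496 of the higher and 405 of the lower genes, and at least 4-fold changes for 102 and 101. The median change over all genes was -0.02. The 2 arrays of an age differed by a median of 0.16 at birth and 0.16 at 1 week. The 1-week arrays lay beyond both birth arrays for 4412 genes upward (28%) and 5056 genes downward (32.1%).

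With the scanner-file labels 2399 of 15759 genes were called (15.2%), 1318 higher (8.36%) and 1081 lower (6.86%). Among genes tested in both records, 1468 were called in both in the same direction and 0 in opposite directions. These are 88.3% of the value-table calls and 61.4% of the scanner-file calls. When KI 1-week replicate 1 was left out, so that only the array that is KI in both records stood for 1 week, 557 genes were called by limma, 313 higher and 244 lower; in that fit the lone array is assumed to vary like the other groups. Without KI 1-week replicate 2 the count was 645, without KI birth replicate 1 it was 874 and without KI birth replicate 2 it was 633. With the slide column as a block 1 residual degree of freedom remained and 0 genes were called, with 3523 at an unadjusted limma p under 0.05.

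The tissue label was checked against cell type markers. All 15 listed ventricular cardiomyocyte markers were tested. Their summed linear signal was 2834 to 2852 times the 75th percentile at birth and 3053 to 3065 at 1 week in KI. By limma 1 of them, Mb, was higher at 0.64 and 3 were lower (26.7% called, against 10.6% of all genes). The lower ones were the transcription factor genes Hey2 at -2.58, Irx4 at -0.89 and Nkx2-5 at -0.71. Tnnt2, which carries the deletion, read 8.19 and 8.11 at birth and 8.21 and 8.20 at 1 week, a difference of 0.06 ± 0.19 (limma adjusted p = 0.894). Its probe reports the transcript's level and does not check the deletion of a single codon. Myl2, the ventricular regulatory light chain, differed by 0.04 ± 0.15 (limma adjusted p = 0.904). Each array holds RNA of whole ventricle, in which fewer cells of a type and less RNA per cell cannot be told apart.

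**Figure D1:**
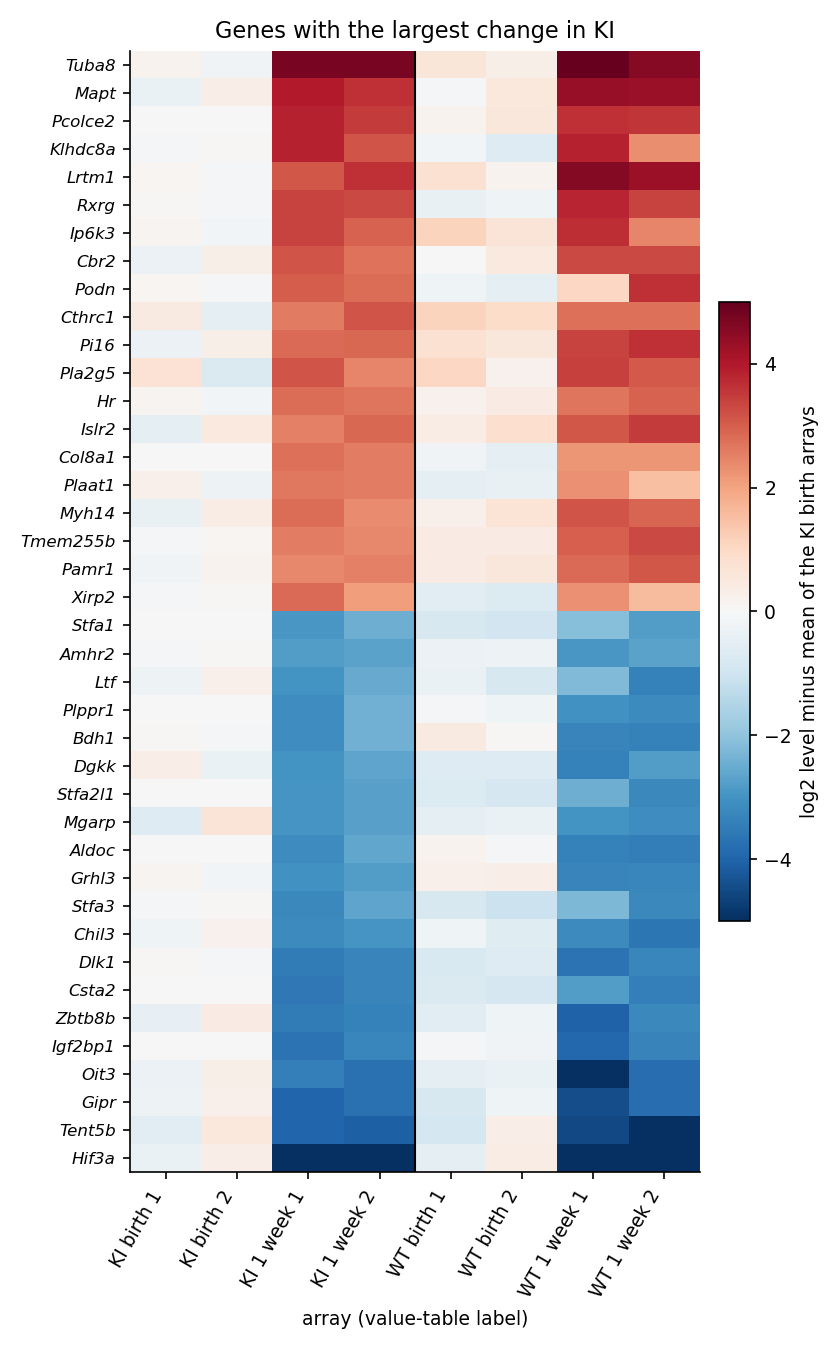
Heat map of the 20 genes with the largest rise and the 20 with the largest fall in KI among called genes above background on all 4 KI arrays. Each cell is the log2 level on 1 array minus the mean of the KI birth arrays, on a colour scale from -5 to 5, with arrays named by the value table; the WT arrays, on the right, show the same split between birth and 1 week.

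The largest rise among called genes above background on all 4 KI arrays was that of Tuba8. This alpha tubulin isotype read -0.25 and -0.63 at birth and 4.30 and 4.29 at 1 week, a rise of 4.74 ± 0.21 or 26.6-fold (limma adjusted p = 0.000328). Both 1-week arrays stood far above both birth arrays and nearly equal to each other. Mapt, the microtubule-binding protein tau, rose by 3.80 ± 0.27, and its 2 other probes gave 4.36 and 4.72. Pcolce2, an enhancer of procollagen C-proteinase, read -2.83 and -2.87 at birth and 0.99 and 0.63 at 1 week, a rise of 3.66 ± 0.18. The other genes of this set were Klhdc8a, Lrtm1, Rxrg, Ip6k3, Cbr2, Podn, Cthrc1, Pi16, Pla2g5, Hr, Islr2, Col8a1, Plaat1, Myh14, Tmem255b, Pamr1 and Xirp2, with rises between 2.45 and 3.48. Of these, Tmem255b had 2 other probes above background, which gave -0.36 and 2.24, so its probes disagree.

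The largest falls were led by Hif3a, a hypoxia-inducible factor subunit that counteracts the others. It read 3.26 and 3.89 at birth and -1.67 and -1.78 at 1 week, a change of -5.30 ± 0.37 (limma adjusted p = 0.000893), or 39.5-fold. Tent5b, a poly(A) polymerase, changed by -4.02 ± 0.51 and Gipr, the receptor of the incretin GIP, by -3.84 ± 0.30. Changes between -3.57 and -2.69 were measured for Oit3, Igf2bp1, Zbtb8b, Csta2, Dlk1, Chil3, Stfa3, Grhl3, Aldoc, Mgarp, Stfa2l1, Dgkk, Bdh1, Plppr1, Ltf, Amhr2 and Stfa1. Csta2, Stfa1, Stfa2l1 and Stfa3 encode stefin A protease inhibitors whose sequences are near copies, so their probes may share signal. Amhr2 had 1 other probe above background, which went the other way (0.35).

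In KI 122 genes were not well above background on either birth array and were above it on both 1-week arrays, and for 229 genes it was the reverse, so that their change is a bound. Itgb6, the beta subunit of an integrin that activates latent TGF-beta, was above background only at 1 week and was at least 19.1-fold higher there. Tnfrsf11b, the decoy receptor osteoprotegerin, was at least 9.66-fold higher and Mas1, the angiotensin-(1-7) receptor, at least 6.50-fold higher. For Pdzd3, Ret and Cck the bounds were at least 7.21-fold, 7.15-fold and 5.33-fold higher. In the other direction Calca, the gene of calcitonin and of the neuropeptide CGRP, was at least 7.34-fold lower at 1 week, Rhcg, an ammonia transporter, at least 6.97-fold, and Il1r2, a decoy receptor for interleukin-1, at least 6.39-fold. Bounds set the mean of the bright group against the higher of the dim probe's own signal and the lowest signal that counted as above background on each array.

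Sarcomere genes moved in both directions. Of 58 tested sarcomere genes 7 were higher and 9 lower (27.6% against 10.6% of all genes), with a median of -0.07. With any 1 KI array left out, 2 or 3 were higher and 3 to 5 lower. Myh7, the slow myosin heavy chain that dominates the fetal ventricle, read 9.45 and 9.52 at birth and 7.12 and 7.28 at 1 week, a change of -2.29 ± 0.12 or 4.88-fold (limma adjusted p = 0.000361). Tnni1, slow skeletal troponin I, read 8.18 and 8.24 at birth and 7.11 and 7.21 at 1 week, a change of -1.05 ± 0.12, and its second probe gave -0.95. The adult partners of both, Myh6 and Tnni3, did not pass the test, at 0.09 ± 0.13 and 0.14 ± 0.13. For Myh6 a second probe gave 0.80, so that the 2 probes of this gene disagree in size.

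Other genes of the sarcomere list moved as well, some of them forms of skeletal or smooth muscle. The part of neighbouring muscle tissue in these changes was not tested. Tcap, the telethonin cap of titin at the Z-disc, read 6.08 and 6.04 at birth and 7.35 and 7.09 at 1 week, a rise of 1.16 ± 0.13 (limma adjusted p = 0.00349). Xirp2, an actin-binding repeat protein, rose by 2.45 ± 0.29 from levels of -1.70 and -1.61. Myoz1, a calsarcin of the Z-disc, fell by 1.56 ± 0.14. Tnni2, fast skeletal troponin I, fell by 1.41 ± 0.23, and Acta2, smooth muscle actin, by 0.83 ± 0.18; the Acta2 call was lost with the scanner-file labels (limma adjusted p = 0.22). Cardiac actin (Actc1), of the thin filament, differed by -0.13 ± 0.16.

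Myh7 was the single gene whose change over the week differed between KI and WT at a limma adjusted p under 0.05 (0.00635% of the genes tested), with 763 genes at an unadjusted p under 0.05. In WT it read 9.49 and 9.44 at birth and 4.61 and 4.54 at 1 week, a change of -4.89, and the KI change minus the WT change was 2.60 ± 0.17 (limma adjusted p = 0.0223; 5.91e-04 to 0.999 over the alternatives). At birth the 4 arrays lay together, and at 1 week they fell into a high and a low pair. The value table labels the high pair KI and the low pair WT. The scanner files label 1 array of each pair KI, so that with those labels the difference of changes was 0.02 (limma adjusted p = 0.999) and the fall of Myh7 in KI was -3.58 with a limma adjusted p of 0.0604. The genotype difference in Myh7 therefore exists in only 1 of the 2 records. With the scanner-file labels 0 genes differed between genotypes in their change, with 993 at an unadjusted limma p under 0.05.

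**Figure D2:**
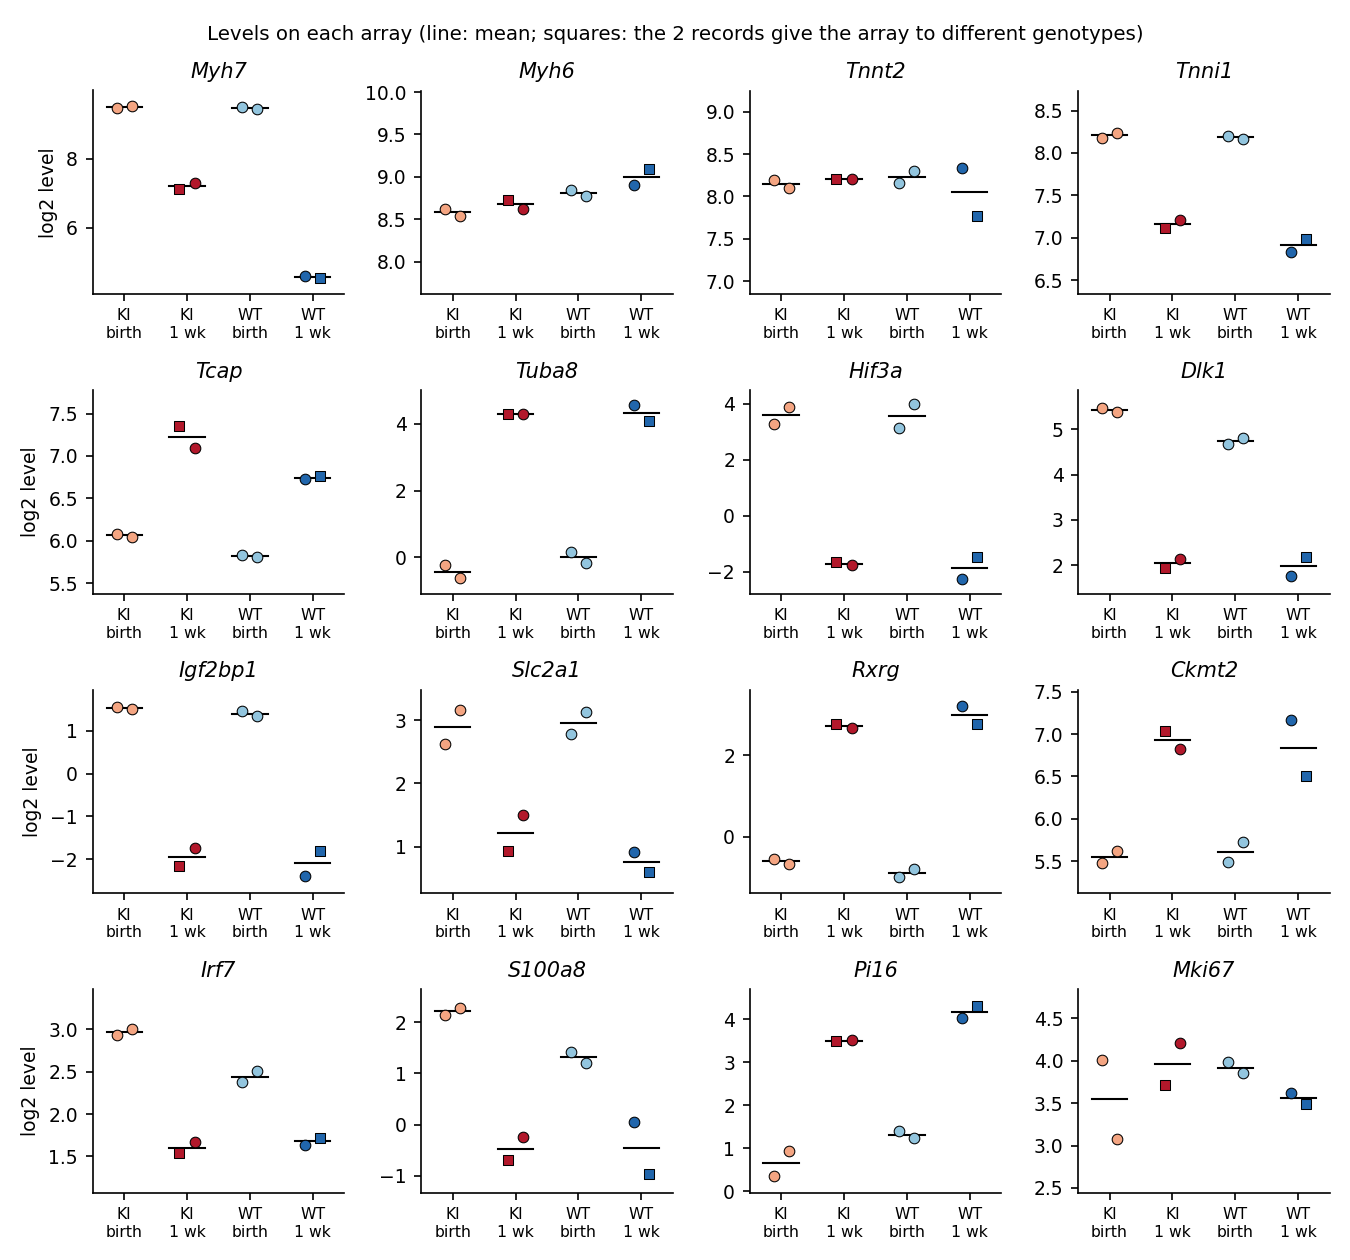
Log2 level of 16 genes on each of the 8 arrays, grouped by genotype and age with the value table's labels; the line is the mean of 2 arrays, and squares mark the 2 arrays that the scanner files give to the other genotype. Myh7 splits the 1-week arrays by value-table genotype, whereas Tuba8, Hif3a and Rxrg lie together at 1 week whatever the label.

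**Figure D3:**
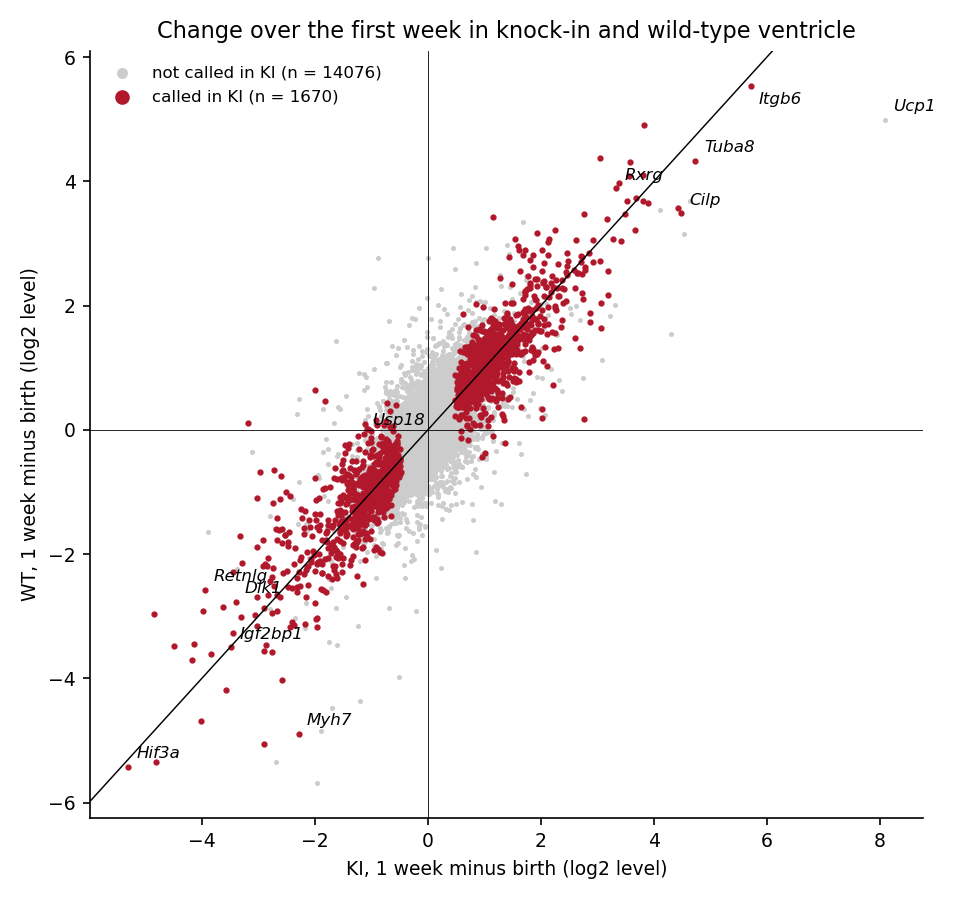
Change from birth to 1 week (log2 level) of 15746 genes in KI on the horizontal axis and in WT on the vertical axis, with the 1670 genes called in KI in red and the line of equal change in black. Most called genes lie along the line, Myh7 lies below it, and Ucp1 is far to the right without being called.

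For other genes the change over the week was set side by side in the genotypes, which share no arrays. WT had 2990 called genes (19%), 1577 higher (10%) and 1413 lower (8.97%). Of them 1409 genes were called in the same direction in KI as well, which is 84.4% of the KI calls and 47.1% of the WT calls; 0 were called in opposite directions. Of the 1670 genes called in KI, 1648 had the same sign in WT. Across genes the 2 changes had a Pearson r of 0.80, as a description, since genes are not independent replicates and all arrays share 1 slide. The median standard error of a difference of changes was 0.24, so that modest differences between the genotypes were within the error.

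Fetal growth genes were mostly lower at 1 week. Of 22 tested imprinted genes of the fetal growth network, 11 were lower and 1 was higher (54.5% called, against 10.6% of all genes), with a median of -0.93. Leaving out 1 KI array, whichever it was, left 6 or 7 of them lower. Dlk1, a membrane-bound Notch-like growth regulator, read 5.48 and 5.38 at birth and 1.94 and 2.14 at 1 week, a change of -3.39 ± 0.17 or 10.5-fold (limma adjusted p = 0.000331). Igf2, the fetal insulin-like growth factor, fell by 1.33 ± 0.12 and its neighbour H19, a long noncoding RNA of the same imprinted domain, by 1.54 ± 0.16. Plagl1, a zinc finger factor of this network, fell by 1.76 ± 0.11, although a second probe for it gave -0.06. Igf2r, which clears Igf2, fell by 1.46 ± 0.17, and Cdkn1c, a cyclin-dependent kinase inhibitor, by 1.23 ± 0.15. The member that rose was Dcn, the matrix proteoglycan decorin, at 1.38 ± 0.19.

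The wider list of growth factor and developmental signalling genes held RNA-binding proteins as well. Igf2bp1, which binds the Igf2 transcript, read 1.56 and 1.50 at birth and -2.16 and -1.74 at 1 week, a change of -3.48 ± 0.23 (limma adjusted p = 0.000783). Igf2bp3 fell by 1.40 ± 0.17 and Lin28b, which blocks maturation of let-7 microRNAs, by 1.47 ± 0.15. The Lin28b fall rests on its brightest probe, because the mean over its probes gave 0.13. Its relative Lin28a differed by 0.20 and did not pass the test. Of the 50 tested genes of this list 15 were lower and 2 higher (34% called, against 10.6% of all genes), and with any 1 KI array left out 7 to 10 were lower and 0 or 1 higher by limma. The receptor Igf1r fell by 1.09 ± 0.16, whereas its ligand Igf1 differed by 0.32 ± 0.15 and did not pass the test. Among cardiac transcription factors, Hey2, a Notch-pathway repressor of the ventricular compact layer, fell by 2.58 ± 0.19 and Nkx2-5, a core cardiac factor, by 0.71 ± 0.13. Hand1 fell by 2.67 ± 0.17 to a level that was above background on 1 of the 2 KI arrays at 1 week.

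Few cell division genes were called in KI. Of 103 tested, 1 was higher and 1 lower, which is 1.94% called against 10.6% of all genes, and 19 had an unadjusted limma p under 0.05. The median difference was 0.27 and 85 of the 103 were above 0, whereas 47.2% of all genes were. Mki67, the proliferation antigen, read 4.01 and 3.08 at birth and 3.71 and 4.20 at 1 week, so that the ages overlapped (0.41 ± 0.31, limma adjusted p = 0.462). Mcm6, a subunit of the replicative helicase, differed by 0.70 ± 0.25, and Ccnb1, the mitotic cyclin, by -0.36 ± 0.27, and neither passed the test. The called members were E2f2, a factor of S-phase entry, at 1.03 ± 0.24, and Ccnd3, a G1 cyclin, at -0.71 ± 0.17. The birth arrays differed in this list more than the ages did. Its median relative to the mean of the KI birth arrays was 0.34 on replicate 1 and -0.34 on replicate 2 at birth, and 0.13 and 0.44 at 1 week. Without KI birth replicate 2 the list median was -0.06 and 0 members were called by limma; without KI birth replicate 1, the array that the scanner software marked for evaluation, it was 0.65 and 9 were higher. In WT the median change was -0.48 with 9 members lower, and the difference of changes had a median of 0.69 with 0 members called and 13 at an unadjusted limma p under 0.05. With the scanner-file labels the KI median was 0.07.

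Several genes of glucose handling were lower at 1 week. Of 41 tested genes of glycolysis, glucose and glycogen, 9 were lower and 3 higher, and 14 were lower and 3 higher with the scanner-file labels. The value-table calls are 29.3%, against 10.6% of all genes. With any 1 KI array left out, 3 to 6 were lower and 0 higher by limma. Aldoc, the aldolase isozyme of neural tissue, read 3.01 on both birth arrays and -0.12 and 0.40 at 1 week, a change of -2.87 ± 0.19 (limma adjusted p = 0.000785), and its other probe gave -3.00. Slc2a1, the glucose transporter GLUT1 of the fetal heart, read 2.63 and 3.15 at birth and 0.93 and 1.50 at 1 week, a change of -1.68 ± 0.27. Slc2a4, the insulin-responsive transporter GLUT4, rose by 0.78 ± 0.14 from 4.42 and 4.47. The hexokinases went in opposite directions, with Hk2 at 0.80 ± 0.16 and Hk1 at -0.56 ± 0.14. Pygl, the liver form of glycogen phosphorylase, fell by 1.77 ± 0.13, and Slc16a3, the lactate exporter MCT4, by 1.78 ± 0.43. Ldha and Pkm, which carry the last steps of glycolysis, differed by -0.06 ± 0.18 and -0.03 ± 0.13.

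Stretches of the promoters of 3 of these falling genes are shown because they hold ACGTG, the core pattern of hypoxia response elements, which is also part of the E-box CACGTG. They come from RefSeq promoter windows on GRCm38.p6, 250 bases before to 50 after the gene's start, on the gene's strand, with up to 55 bases on either side of the first match, ending at the gene's start, and matches to ACGTG or its reverse complement CACGT in capitals.
Slc2a1: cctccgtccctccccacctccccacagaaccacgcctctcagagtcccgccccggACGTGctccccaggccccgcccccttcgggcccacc
Pygl: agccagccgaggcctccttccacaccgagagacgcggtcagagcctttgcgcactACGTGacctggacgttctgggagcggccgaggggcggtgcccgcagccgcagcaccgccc
Slc16a3: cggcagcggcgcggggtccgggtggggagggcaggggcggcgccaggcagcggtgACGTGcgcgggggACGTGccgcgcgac
The stretch of Slc2a1 lies at chr4:119108654-119108744 on the plus strand, that of Pygl at chr12:70227755-70227869 on the minus strand and that of Slc16a3 at chr11:120948985-120949066 on the plus strand. The pattern, searched on both strands, was in the window of 8 of 11 called genes of this list that had a window. Among the lower genes it was in 6 of 9, so called higher genes held it too. It was also in 14 of 28 members that were not called, and in 27.5% of 12440 tested genes. A match is a description of these letters and not evidence of binding.

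Oxygen-sensing genes were mixed. Epas1, the HIF-2 alpha subunit of endothelium, read 4.52 and 4.66 at birth and 5.72 and 5.65 at 1 week, a rise of 1.10 ± 0.12 (limma adjusted p = 0.00334). Hif1a differed by 0.15 ± 0.16 and Vegfa, the main vascular growth factor, by 0.02 ± 0.19. Pdk1, the kinase that closes pyruvate dehydrogenase in hypoxia, fell by 0.88 ± 0.17. In the whole list 2 of 26 were higher and 5 lower (26.9% called, against 10.6% of all genes), with 2 to 5 lower when any 1 KI array was left out, and 3 of the lower ones, Hif3a, Slc2a1 and Aldoc, are described above.

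Fatty acid genes showed no common direction over the week. Of 48 tested, 1 was higher and 5 lower (12.5% called, close to the 10.6% of all genes), with a median of 0.03. With any 1 KI array left out, 1 or 2 were lower. Cpt1a, the liver form of the enzyme that admits fatty acids to mitochondria, read 3.05 and 3.03 at birth and 2.40 and 2.39 at 1 week, a change of -0.64 ± 0.12 (limma adjusted p = 0.0196), and the muscle form Cpt1b differed by 0.04 ± 0.16. Acot1, an acyl-CoA thioesterase, fell by 1.31 ± 0.17, and Decr1, which handles unsaturated acyl chains, rose by 0.75 ± 0.15. Pdk4, a pyruvate dehydrogenase kinase driven by fatty acids and fasting, fell by 1.08 ± 0.22, a call that was lost with the scanner-file labels (limma adjusted p = 0.246). Of 7 tested ketone body enzymes 2 were lower and 0 higher by limma (28.6% called, against 10.6% of all genes). Bdh1, which interconverts ketone bodies, read -0.25 and -0.37 at birth and -3.43 and -2.72 at 1 week, a change of -2.77 ± 0.25 (limma adjusted p = 0.00184), and a second probe gave -2.69.

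Few respiratory chain genes were called. Of 81 tested genes of the respiratory chain and ATP synthase 1 was higher and 0 lower by limma, with 12 at an unadjusted p under 0.05. That is 1.23% called, against 10.6% of all genes. The median was 0.15, and 65 members were above 0, where 47.2% of all genes were. The called gene was Cox8b, the muscle form of a cytochrome oxidase subunit, at 0.49 ± 0.11 (limma adjusted p = 0.0376; 0.0539 with the scanner-file labels). Ckmt2, the mitochondrial creatine kinase of muscle, read 5.48 and 5.62 at birth and 7.03 and 6.83 at 1 week, a rise of 1.38 ± 0.23. Mb, the oxygen store myoglobin, rose by 0.64 ± 0.14. Me3, a mitochondrial malic enzyme, rose by 1.83 ± 0.22. Ppargc1a, a coactivator of mitochondrial genes, differed by -0.15 ± 0.22 and its partner Esrra by -0.08 ± 0.13.

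Genes of the thyroid hormone and glucocorticoid list were called in both directions. The list holds receptors, deiodinases and transporters beside responsive genes. Of 31 tested genes of this list, 9 were lower and 3 higher (38.7% called, against 10.6% of all genes), with a median of -0.53. The 3 higher ones were the receptor genes Thrb and Nr3c1, and Dio2, a deiodinase of thyroid hormone, at 0.75. With any 1 KI array left out, 3 to 6 were lower and 1 or 2 higher. From the list of mitochondrial and nuclear receptor regulators, Rxrg, a retinoid X receptor that pairs with thyroid hormone receptors, read -0.55 and -0.68 at birth and 2.76 and 2.69 at 1 week, a rise of 3.34 ± 0.17 or 10.1-fold (limma adjusted p = 0.000331). In the hormone list Thrb, a thyroid hormone receptor, rose by 2.06 ± 0.27 from -4.42 and -3.68 to -1.79 and -2.20. The glucocorticoid receptor gene Nr3c1 rose by 0.69 ± 0.14, while the glucocorticoid-induced genes Fkbp5, Klf15 and Mt2 fell by 1.61 ± 0.32, 1.96 ± 0.36 and 2.36 ± 0.36. Klf9, which both hormones induce, differed by -0.27 ± 0.39 with overlapping ages.

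By the value-table labels, ion channel and calcium-handling genes were called about as often as all genes. Of 56 tested ion channel and gap junction genes, 7 were higher and 1 lower (14.3% called), and of 40 calcium-handling genes 4 were higher and 1 lower (12.5% called), against 10.6% of all genes. The scanner-file labels gave 6 higher and 2 lower channel genes, and 6 higher and 4 lower calcium genes, with 15.2% of all genes called. When 1 KI array was left out, 1 to 3 channel genes and 0 to 4 calcium genes were higher by limma, the fewest without KI 1-week replicate 1 (1 and 0), and 0 were lower. Kcnj8, a pore subunit of ATP-sensitive potassium channels in vessel walls, read 2.94 and 3.12 at birth and 3.90 and 3.63 at 1 week, a rise of 0.74 ± 0.18 (limma adjusted p = 0.0468). Camk2b, a calcium-calmodulin kinase subunit, rose by 1.29 ± 0.20, and Hrc, a calcium-binding protein of the sarcoplasmic reticulum, by 0.99 ± 0.14. Slc8a1, the sodium-calcium exchanger, fell by 0.72 ± 0.18. The calcium pump Atp2a2 differed by 0.17 ± 0.16, its inhibitor Pln by -0.33 ± 0.28 and the release channel Ryr2 by -0.12 ± 0.11, and none of them passed the test.

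Genes of wall stress went both ways in KI. Of 38 tested, 5 were higher and 7 lower (31.6% called, against 10.6% of all genes), with a median of -0.17. Fits without 1 KI array gave 2 to 4 higher and 1 to 5 lower. Nppa and Nppb, the natriuretic peptides, differed by -0.27 ± 0.55 and -0.52 ± 0.21, and Ankrd1, a stretch-responsive nuclear cofactor, by -0.15 ± 0.25; none passed the test. Ccn2, a matricellular target of stretch signalling, fell by 1.12 ± 0.28, and Myc, a transcription factor gene of growth and division, by 2.31 ± 0.28. Ltbp2, a latent TGF-beta binding protein of the matrix, read -0.33 and -0.76 at birth and 1.51 and 1.60 at 1 week, a rise of 2.10 ± 0.25. Among receptors and hormones Apln, the ligand of the apelin receptor, rose by 2.21 ± 0.21, and Edn1, endothelin 1, and Agtr2, the fetal angiotensin receptor, fell by 1.25 ± 0.16 and 1.82 ± 0.30.

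Many matrix genes were higher at 1 week. Of 76 tested, 29 were higher and 3 lower (42.1% called against 10.6% of all genes), with a median of 0.53. Of these, 27 higher and 2 lower genes were above background on all 4 KI arrays. With the scanner-file labels 35 matrix genes were higher and 2 lower. Eln, the elastic fibre protein, read 1.68 and 1.27 at birth and 3.08 and 3.78 at 1 week, a rise of 1.95 ± 0.44 (limma adjusted p = 0.0353). Col8a1, a short-chain collagen of vessels, rose by 2.64 ± 0.14 from -0.22 and -0.15 to 2.55 and 2.36. Lum, the proteoglycan lumican, rose by 1.76 ± 0.15, and Cthrc1, a secreted collagen-associated protein of fibroblasts, by 2.87 ± 0.31. The fibrillar chains Col1a1 and Col3a1 differed by 0.49 ± 0.20 and 0.83 ± 0.21, and fibronectin (Fn1) by 0.27 ± 0.15, none of them past the threshold. Col11a1, a fetal fibrillar chain, fell by 1.20 ± 0.13, and Timp4, a metalloproteinase inhibitor, by 1.88 ± 0.31. The count of higher matrix genes was 10 without KI 1-week replicate 1, 13 without KI 1-week replicate 2, 20 without KI birth replicate 1 and 13 without KI birth replicate 2.

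Markers of the cells between the muscle fibres were called in differing shares, to be read against 10.6% of all genes. Of 16 tested fibroblast markers, 9 were higher and 0 lower by limma, with a median of 0.81 (56.2% called). With the scanner-file labels 12 fibroblast markers were higher and 0 lower. This list shares 7 genes with the matrix list, 4 of them among the 9, so it is in part the same measurement. Their summed signal was 343 to 397 at birth and 548 to 587 at 1 week, in units of the 75th percentile, and 5 to 7 were higher with any 1 KI array left out. Pi16, a marker of adventitial fibroblasts, read 0.36 and 0.94 at birth and 3.48 and 3.51 at 1 week, a rise of 2.85 ± 0.21. Tcf21, a factor of the fibroblast lineage, differed by -0.20 ± 0.12. Of 16 mural and smooth muscle markers, 6 were higher and 2 lower (50% called), with a median of 0.45 and 11 above 0. Their summed signal was 255 to 267 at birth and 237 to 239 at 1 week. Its brightest member at 1 week was Acta2, which fell by 0.83. The scanner-file labels gave 8 higher and 3 lower mural markers. Rgs5, a pericyte gene, rose by 1.51 ± 0.14, and the contractile protein Cnn1 fell by 2.47 ± 0.44. Of 23 endothelial markers 5 were higher and 3 lower (34.8% called), with Cd34 at 1.11 ± 0.18 and Plvap, the diaphragm protein of fenestrated vessels, at -1.11 ± 0.18. With the scanner-file labels 11 endothelial markers were higher and 2 lower. Their summed signal was 441 to 458 at birth and 546 to 668 at 1 week. Its brightest member at 1 week was Fabp4, which is also the brightest of the adipocyte list, and Fabp4 differed by 0.17 and was not called. Of 15 Schwann cell and nerve markers 5 were higher (33.3% called), and Dbh, the enzyme that makes noradrenaline, rose by 1.91 ± 0.22. With any 1 KI array left out, at most 3 mural, 1 endothelial and 3 Schwann markers were higher and 0 lower by limma. The part of cell composition in the matrix result was not tested.

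Neutrophil genes were lower at 1 week. Of 17 tested neutrophil genes, 12 were lower and 0 higher by limma (70.6% called, against 10.6% of all genes), with a median of -2.01. On all 4 KI arrays 12 of the 17 were above background, and 7 of these were called lower. The other called genes were not above background on every KI array. With the scanner-file labels 9 were lower and 0 higher. Without KI 1-week replicate 1, and likewise without KI birth replicate 2, 7 were lower, and 10 were lower without KI 1-week replicate 2 and without KI birth replicate 1. S100a8 and S100a9 encode the calprotectin subunits. S100a8 read 2.14 and 2.28 at birth and -0.70 and -0.25 at 1 week, a change of -2.68 ± 0.33 (limma adjusted p = 0.00426), and S100a9 fell by 2.53 ± 0.27. Retnlg, a resistin-like secreted protein of neutrophils, fell by 3.95 ± 0.31 and was above background on 1 of the 2 KI arrays at 1 week, and Chil3, a chitinase-like protein of myeloid cells, by 3.06 ± 0.23. The summed signal of the list was 184 to 208 at birth and 184 to 192 at 1 week, and its brightest member at 1 week was Csf3r, a cytokine receptor gene that read 7.19 and 7.34 at birth and 7.30 and 7.37 at 1 week. Macrophage markers were mixed, with 6 of 22 higher and 2 lower (36.4% called). Folr2 and Cbr2 rose by 1.80 ± 0.19 and 2.93 ± 0.25. Lyve1 fell by 0.88 ± 0.15 and Fcgr1, an Fc receptor, by 1.12 ± 0.17. Of 22 antigen presentation genes, 4 were higher and 0 lower by limma (18.2% called), with Psmb9, a subunit of the immunoproteasome, at 1.00 ± 0.14. With the scanner-file labels 5 antigen presentation genes were higher and 2 lower.

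Interferon-stimulated genes, which cells switch on when type I interferon binds its receptor, were lower at 1 week. Of 36 tested, 17 were lower and 0 higher by limma (47.2% called; 4.74% of all genes were lower), with a median of -0.50, and all 17 were above background on all 4 KI arrays. For the promoters, windows of 12 of the 17 lower genes were found in the RefSeq table, and 6 of them held GAAAC and GAAA separated by 1 base, on either strand, a pattern of interferon response elements; it was in 4 of 15 windows of members that were not called and in 0.82% of 12440 tested genes. Stretches of 4 lower genes are shown because they hold the pattern. They come from the same kind of window, with matches to GAAAC-N-GAAA or its reverse complement TTTC-N-GTTTC (N is any base) in capitals. In Isg15 a pair of matches overlaps. A match is a description of these letters and not evidence of binding. Ifit3 and Bst2 lie outside the rule for named genes and were chosen after their values were seen.
Isg15: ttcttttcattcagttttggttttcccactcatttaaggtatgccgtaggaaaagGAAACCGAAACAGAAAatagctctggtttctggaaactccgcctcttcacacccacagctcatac
Ifit1: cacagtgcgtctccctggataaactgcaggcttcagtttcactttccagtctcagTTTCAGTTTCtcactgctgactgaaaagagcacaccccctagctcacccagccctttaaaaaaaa
Ifit3: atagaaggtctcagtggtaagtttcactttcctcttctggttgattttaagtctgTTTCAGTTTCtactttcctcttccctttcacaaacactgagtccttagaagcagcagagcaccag
Bst2: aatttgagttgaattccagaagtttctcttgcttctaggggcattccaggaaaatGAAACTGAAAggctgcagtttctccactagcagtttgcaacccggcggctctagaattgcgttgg
The stretches lie at chr4:156200826-156200945 (Isg15, minus strand), chr19:34640749-34640868 (Ifit1, plus strand), chr19:34583352-34583471 (Ifit3, plus strand) and chr8:71537532-71537651 (Bst2, minus strand). The first match starts at -72, -85, -122 and -124 from the gene's start in that order.

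The 4 genes whose promoters are printed were lower at 1 week. Isg15, a ubiquitin-like protein, read 2.67 and 3.02 at birth and 1.50 and 1.65 at 1 week, a change of -1.27 ± 0.29 (limma adjusted p = 0.0368). Ifit1, which binds viral RNA, read -2.29 and -2.25 at birth and -3.53 and -3.86 at 1 week, a change of -1.42 ± 0.24. Ifit3, its partner, fell by 1.10 ± 0.20 and Bst2, the membrane tether of budding virus, by 0.62 ± 0.13. Isg15 was called in 10 of 20 alternatives, with limma adjusted p from 0.00266 to 0.189; leaving out any 1 of the KI arrays or of the WT birth arrays ended the call.

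Regulators of the response were lower as well. Irf7, the factor that amplifies interferon production, read 2.93 and 3.0 at birth and 1.54 and 1.67 at 1 week, a change of -1.36 ± 0.12 or 2.57-fold (limma adjusted p = 0.00184). Usp18, which removes Isg15 from proteins and damps the receptor, read -0.48 and -0.36 at birth and -1.45 and -1.65 at 1 week, a change of -1.13 ± 0.13. Oasl1, Oasl2 and Ifi44 fell by 1.33 ± 0.17, 1.12 ± 0.12 and 1.60 ± 0.23. Both 1-week arrays lay below both birth arrays for 27 of the 36 genes, against 32.1% of all genes.

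In WT the same list had 9 genes lower and 3 higher, with a median of -0.23. Usp18 changed by -0.06 in WT, Isg15 by -0.51 and Irf7 by -0.77. In none of the 36 genes did the change differ between genotypes at a limma adjusted p under 0.05, and 8 did so at an unadjusted p under 0.05. Relative to the KI birth arrays the list median was -0.33 and -0.26 on the WT birth arrays, -0.61 and -0.48 on the KI 1-week arrays and -0.57 and -0.49 on the WT 1-week arrays. In this list the medians of the genotypes lay apart at birth and close together at 1 week, a difference that was not tested. With the scanner-file labels 16 members were lower and 2 higher in KI, and 7 were lower without KI 1-week replicate 1, 6 without KI 1-week replicate 2, 5 without KI birth replicate 1 and 9 without KI birth replicate 2. The neutrophil list moved with it, by a median of -2.01 in KI and -1.53 in WT, and its part in the fall was not tested.

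**Figure D4:**
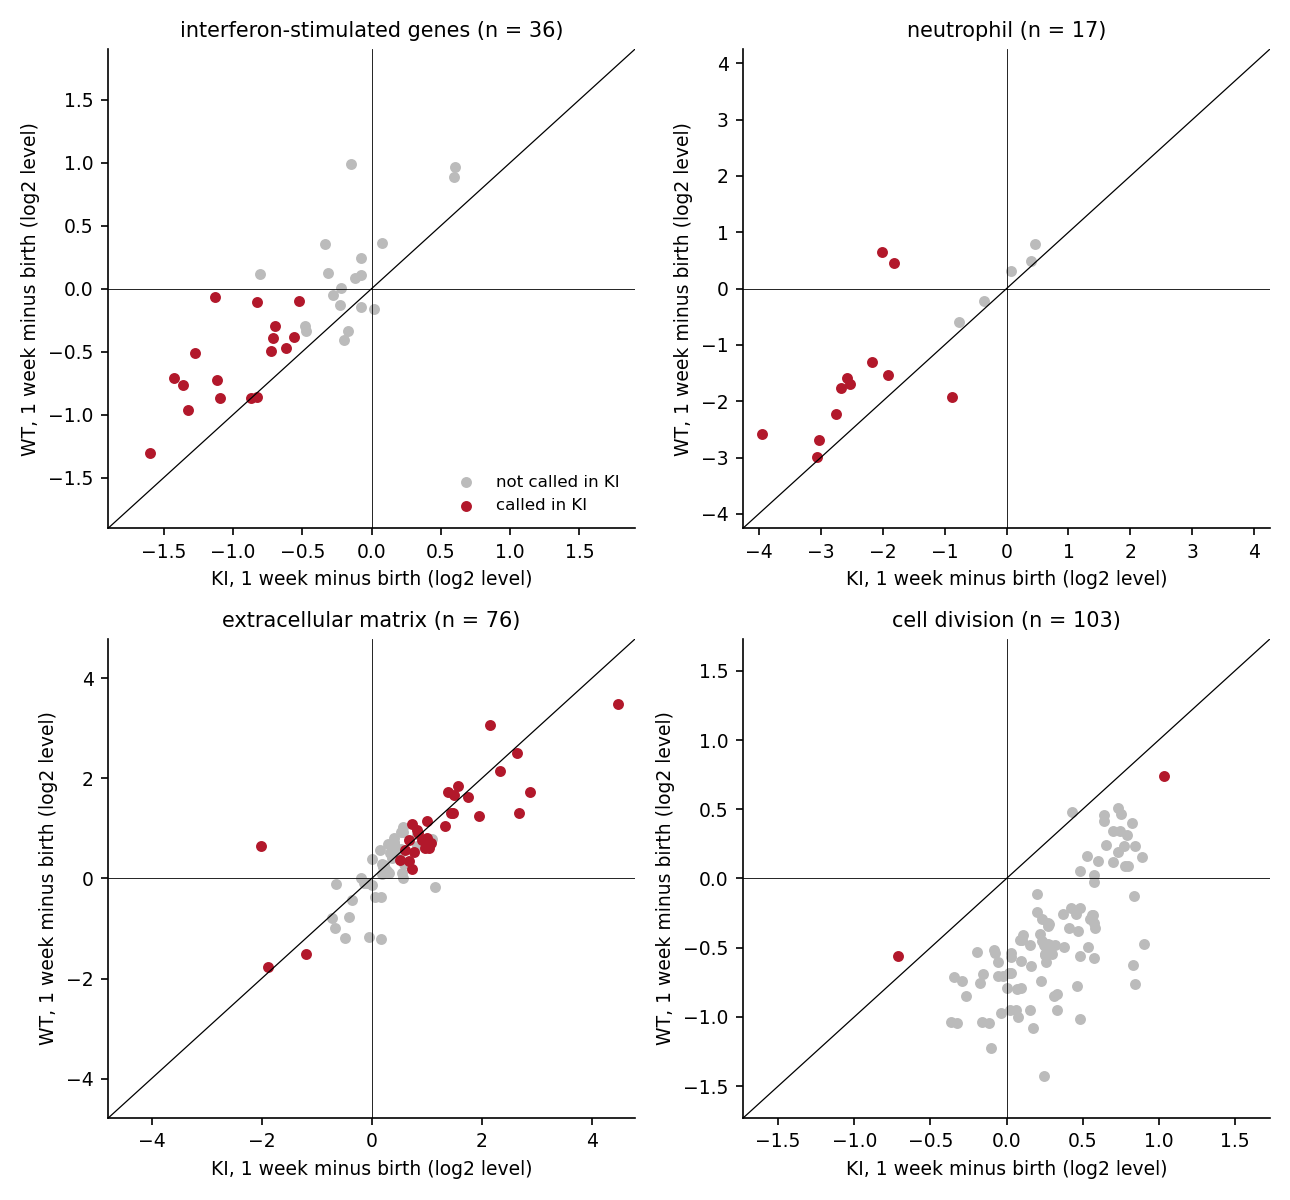
Change from birth to 1 week (log2 level) of each tested member of 4 lists, in KI on the horizontal axis and in WT on the vertical axis, with members called in KI in red and the line of equal change in black. All 17 called interferon-stimulated genes lie left of 0 and 16 of them above the line, matrix genes spread along it, most neutrophil genes lie above it, and 101 of the 103 cell division genes lie below it with 2 called.

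**Figure D5:**
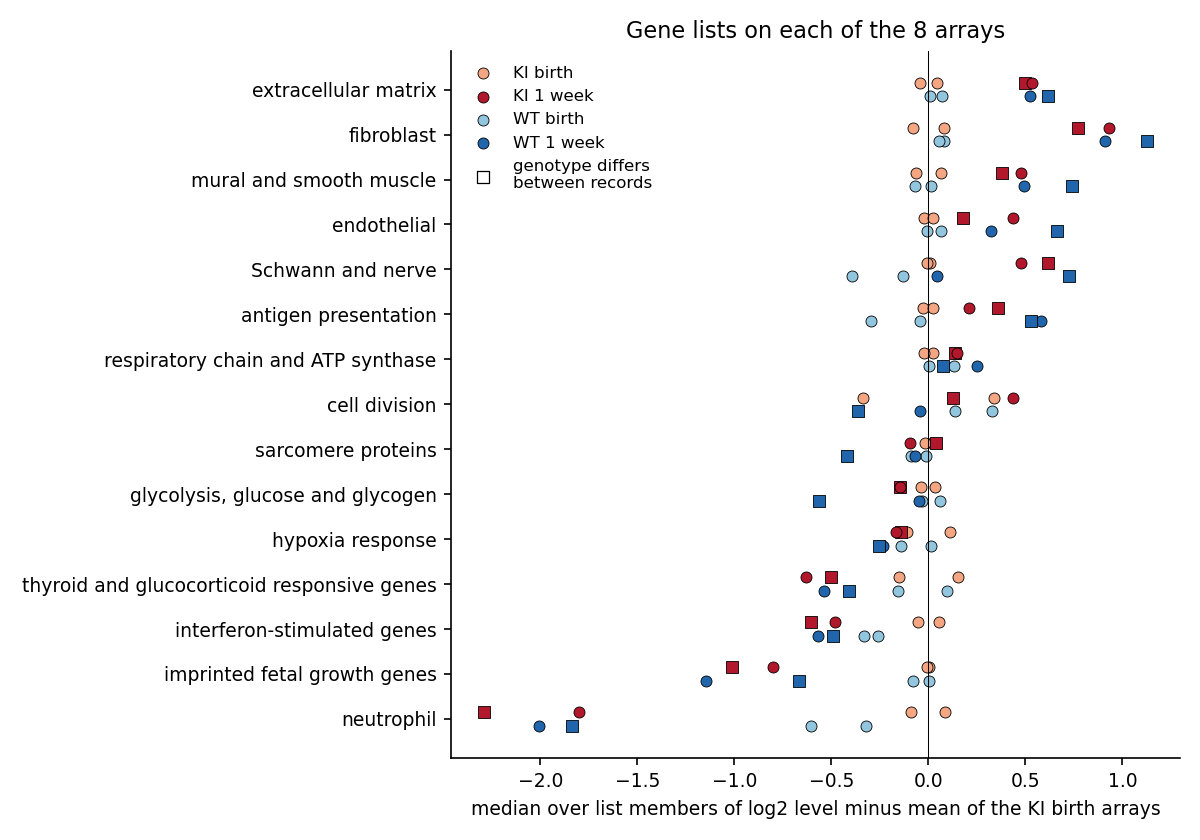
Median over list members of the log2 level minus the mean of the KI birth arrays, for 15 lists on each of the 8 arrays, with KI above and WT below in each line and squares for the 2 arrays whose genotype differs between the records. The 1-week arrays stand apart from the birth arrays for matrix, fibroblast, imprinted and neutrophil genes, and the KI birth arrays lie at 0.34 and -0.34 for cell division genes.

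Markers of neighbouring tissues were read beside these results. Fat genes were not called by limma in KI (0 of 15 tested adipocyte markers, against 10.6% of all genes). At an unadjusted limma p under 0.05 there were 6 of them, and 5 of the 15 were called higher with the scanner-file labels. Ucp1, the uncoupling protein of brown fat, was not well above background on either KI birth array and read 0.52 and 1.23 at 1 week, at least 66.0-fold higher (limma adjusted p = 0.0782; 0.0249 with the scanner-file labels). Ucp1 read 2.40 on WT 1-week replicate 2 and -6.28 on WT 1-week replicate 1, so that it was high on 3 of the 4 arrays at 1 week. Adipoq, Cfd, Cidec and Plin1, of mature fat cells, were also not well above background on either KI birth array and above it on both KI 1-week arrays, with none called, and all 4 were low on WT 1-week replicate 1. Adipoq, a hormone of fat cells, was at least 5.15-fold higher (limma adjusted p = 0.117). Cfd, Cidec and Plin1 were chosen after their values were seen. Atrial genes set the same array apart: Myl7, the atrial regulatory light chain, read 5.98 and 5.23 at birth and 5.90 and 6.10 at 1 week in KI, and 2.08 on WT 1-week replicate 1. The summed atrial signal was 608 to 628 at birth and 464 to 528 at 1 week in KI. Its brightest member at 1 week was Nppa, which was not called. The median over the 14 tested atrial genes went the other way, at 0.28, with 8 of them above 0. By limma 0 were called higher and 1 lower (7.14% called, against 10.6% of all genes). Of 9 liver genes tested 0 were called by limma, against 10.6% of all genes, with 4 at an unadjusted p under 0.05, and Afp was not tested. Of 12 skeletal muscle genes tested 2 were higher and 2 lower by limma (33.3% called, against 10.6% of all genes), with a median of -0.31. The lower ones, Tnnt3 and Tnni2, are also in the sarcomere list. Relative to the KI birth arrays the skeletal muscle median was -0.07 on KI 1-week replicate 1 and -0.64 on replicate 2. Myh1 and Myh4 were not tested. Hbb-y, an embryonic globin, was at least 1.64-fold lower at 1 week, while Hba-a1 differed by 0.15 ± 0.19.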

How the data were processed

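Total RNA of pooled ventricle was labelled with Cy3 and hybridised to 8 one-colour Agilent arrays on 1 slide. The deposited spot values are intensities that were background-corrected within each array by Agilent Feature Extraction, version 11.0.1.1 per the file headers and 9.1 per the submitters' processing notes. The flags for control spots and for signal well above background are other columns as deposited by the scanner software. A value-table column was matched to a scanner file where values agreed within 0.0001. The deposited intensities were turned into log2 values here, minus each array's 75th percentile over 56605 probes with repeated spots averaged. That percentile was 343 to 523 intensity units, and probes well above background made up 58.9% to 63.1%. Precision is limited by having 2 arrays per group.

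A total of 32994 probes were named through RefSeq accessions, and the brightest probe stood for each of 22911 genes. A gene was tested if its probe cleared background on each array of any of the 4 groups. All 8 arrays were fitted in limma 3.58.1 (R 4.3.3) with a mean per genotype and age and empirical Bayes moderation, with 4 residual degrees of freedom, and p-values were adjusted over all genes tested (Benjamini-Hochberg). The fit was tested on simulated data.

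Same-numbered arrays were checked for pairing. Their deviations correlated at -0.14 in KI and 0.15 in WT, so the numbers were not treated as pairs. The named genes are up to 20 called genes per direction by size, above background on all 4 KI arrays with no overlap between ages; anchors of each list and up to 3 further called members per direction; up to 6 genes per direction for the genotype difference; and up to 6 per direction that crossed background. Clone, predicted, histone and receptor-cluster genes were left out of the parts that rank by size. The members and lists were chosen with earlier results of these data known. Some items are not reported here.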

Additional observations from a re-analysis of the deposited data

Results flagged for a closer look

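The change of Myh7 over the week differed between genotypes in the value table, where the KI change minus the WT change was 2.60, and the scanner-file labels gave 0.02. Because both labelings come from the deposit, the difference holds only under 1 of them.

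Probes without a gene name entered none of the comparisons of named genes. Fitted by limma together with all other probes, 655 of 12310 tested unnamed probes were called between birth and 1 week in KI (5.32%), 340 higher and 315 lower. Over all probes of that fit, named or not, 2211 of 35349 were called.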

How the results depend on the processing

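The number of genes called in KI was 1670 by the main analysis. It was 0 with the slide column as a block, 1081 without the filter on dim probes and 2923 with the scanner-file labels and normexp background together, an alternative added after seeing the data. Leaving out 1 array gave 557 to 2018: 557 without KI 1-week replicate 1, 645 without KI 1-week replicate 2, 874 without KI birth replicate 1 and 633 without KI birth replicate 2. The replicate block gave 1576 and a crossed block, added later, 1687; same-numbered arrays are not known to be pairs.

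The genotype difference in the change was called for 1 gene. It was 0 with the scanner-file labels, the replicate block, the slide column, quantile normalization, no filter, the crossed block, and the scanner-file labels with the replicate block or normexp. It was 2 with median scaling and 2 with genes above background on all 8 arrays, and 0 to 4 with 1 array left out. For Myh7 it was -0.089 with the scanner-file labels and normexp.

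Of 196 named genes called in KI, 3 changed sign with the mean over probes (Lin28b 0.13, Hcn3 0.043, L1cam -0.21) and 1 with the scanner-file labels and normexp (Mmp9, 0.0076). Outside the slide column block, 103 to 196 of the 196 stayed past the threshold. The cause of these moves was not tested, except that fewer arrays or more genes were tested where stated.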
